A study of Mus musculus with 18 samples.

Results

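The genes described here are 9 signalling genes of the colonic stem cell niche, Bmp2, Bmp4, Bmp5, Grem1, Nog, Chrdl1, Ihh, Ptch1 and Gli1, chosen by name among 36757 genes with a read count in 18 mouse RNA sequencing libraries. All 9 were measured and all 9 passed the filter on low counts in each comparison given here. The libraries came from C57BL/6 mice labelled RNF138 fl/fl (wild type) or RNF138-/-, in 3 settings with 3 libraries per genotype in each. For chronic colitis, mice of 6 to 8 weeks drank 2% dextran sulfate sodium (DSS) for 7 days and water for 14 days, repeated 2 times, and colon tissue was taken 4 weeks after the final cycle. For colitis-associated cancer (CAC), mice of the same age first received the carcinogen azoxymethane (AOM, 10 mg/kg) and began the DSS cycles 4 days later. Organoids were grown in matrigel from digested tumor-bearing fragments of the CAC model, in a medium that the methods list with EGF but with no added Noggin. The promoter that drives Cre, the part of Rnf138 that was deleted and the number of mice behind a library were not given in the sources used here.

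Bone morphogenetic proteins (BMPs) are secreted ligands that hold back stem cell renewal and favour differentiation toward the top of the colonic crypt. Cells beneath the crypt base secrete antagonists that bind BMPs before they reach their receptors, so BMP signalling is weak around the stem cells. Hedgehog runs the other way, from epithelium to stroma: Ihh made by colonocytes binds Ptch1 on neighbouring mesenchymal cells, which frees Smo and activates the Gli transcription factors, and Gli1 and Ptch1 are themselves targets.

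Members are ordered by role. On mm10 the BMP ligands lie at chr2:133552159-133562885 (Bmp2, plus strand), chr14:46383520-46390669 (Bmp4, minus) and chr9:75775364-75900310 (Bmp5, plus). The antagonists lie at chr2:113746164-113758646 (Grem1, minus), chr11:89300638-89302332 (Nog, minus) and chrX:143285674-143394262 (Chrdl1, minus). Ihh is at chr1:74945315-74951672 (minus), Ptch1 at chr13:63508328-63573598 (minus) and Gli1 at chr10:127329882-127341974 (minus). Of the 50-base windows of Bmp5 transcripts, 46.0% also occur in another annotated gene. Its exons overlap those of Gm26903 on the other strand, which had 0 to 8 counts per library, and for the other members the share is at most 4.51%.

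RefSeq promoter windows (GRCm38.p6, 250 bases before to 50 after the transcription start) were at hand for 5 members, Ihh, Grem1, Bmp5, Ptch1 and Bmp4. The windows of Grem1, Bmp4 and Bmp5 are printed because in organoids against CAC tissue the first was called higher, the second was not called and the third was called lower. Capitals mark GGCGCC, a palindrome that reads the same on both strands and is the core of the BMP response element known from Id1. They are at chr2:113758599-113758898 (minus), chr14:46390620-46390919 (minus) and chr9:75775115-75775414 (plus).
Grem1: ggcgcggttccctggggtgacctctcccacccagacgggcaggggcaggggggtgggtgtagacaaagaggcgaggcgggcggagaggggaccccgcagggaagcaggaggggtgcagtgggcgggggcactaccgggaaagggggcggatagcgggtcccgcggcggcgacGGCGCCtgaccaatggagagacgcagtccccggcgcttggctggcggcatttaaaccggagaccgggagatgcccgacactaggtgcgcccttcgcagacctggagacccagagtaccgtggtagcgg
Bmp4: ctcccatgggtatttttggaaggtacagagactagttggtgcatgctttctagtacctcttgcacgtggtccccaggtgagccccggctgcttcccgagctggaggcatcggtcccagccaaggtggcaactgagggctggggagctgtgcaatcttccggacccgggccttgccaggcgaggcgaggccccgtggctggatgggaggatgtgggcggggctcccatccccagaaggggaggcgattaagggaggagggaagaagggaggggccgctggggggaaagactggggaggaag
Bmp5: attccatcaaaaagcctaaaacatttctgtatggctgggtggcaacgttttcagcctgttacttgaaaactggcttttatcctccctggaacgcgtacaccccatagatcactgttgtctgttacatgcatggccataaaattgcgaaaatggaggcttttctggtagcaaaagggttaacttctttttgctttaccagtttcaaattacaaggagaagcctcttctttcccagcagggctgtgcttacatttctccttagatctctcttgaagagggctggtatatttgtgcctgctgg
GGCGCC occurred 1 time in the window of Grem1 and 1 time in that of Ptch1, and in 11.9% of 32851 promoter windows of this length. The GLI consensus GACCACCCA, searched on both strands, occurred in 0 of the 5 windows and in 0.253% of all windows, which says only that these letters are not in these windows. The Grem1 window is 70.7% G or C with 28 CpG, and that of Bmp5 is 43.3% with 4 CpG, against medians of 52.7% and 7 over all windows.

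Libraries held between 11514716 and 24390082 counts. Levels are counts per 1000000 (CPM) after TMM scaling over all 18 libraries, and differences are log2 fold changes from edgeR's quasi-likelihood test with Benjamini-Hochberg adjustment over all genes tested. Calls needed both an adjusted p under 0.05 and a 2-fold difference, the thresholds of the study. Nothing in the labels says that replicates were separate animals, so p-values measure the spread between these libraries only. Rnf138 itself was not lower in the libraries labelled RNF138-/-, with log2 fold changes of -0.06 (SE 0.22, edgeR test, adjusted p = 0.963) in colitis, 0.72 (SE 0.14, adjusted p = 0.0426) in CAC and -0.10 (SE 0.16, adjusted p = 0.668) in organoids. In CAC Rnf138 was thus higher in the libraries labelled RNF138-/-, by less than 2-fold. The cause of these values was not tested, and the genotypes are given as labelled.

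Markers of several cell types moved with the groups, and their part in the results was not tested. In CAC, 7 of 7 smooth muscle markers were called lower in the libraries labelled RNF138-/-, with summed levels of 120.2 to 252 CPM against 2582 to 8728. Called lower too were 3 of 7 surface colonocyte, 3 of 6 enteric neuron and glia, 2 of 2 tested fat, 1 of 5 leukocyte and 1 of 8 fibroblast markers. All 7 surface colonocyte and all 6 enteric neuron and glia markers were lower without overlap, while 45.2% of all genes did not overlap. Surface colonocyte sums were 147 to 423 CPM in the labelled RNF138-/- libraries, against 2276 to 14395. All 5 crypt base markers were higher in those libraries without overlap, at sums of 840 to 1113 CPM. Adipoq was at 0 counts in those 3 libraries. CAC RNF138 fl/fl library 3 stood apart, with a surface colonocyte sum of 14395 CPM against 2742 and 2276 and a crypt base sum of 61.6 against 294 and 369. The organoids held epithelial markers at 5560 to 10736 CPM in sum and fibroblast markers at 9180 to 50145, above the 977 to 1843 of the tissues, so the cultures were not of epithelial transcripts alone. Of the 8 fibroblast markers, 6 were called higher in organoids labelled RNF138-/-, as were 3 of 7 smooth muscle markers. Endothelial markers summed to at most 4.15 CPM in organoids, Cd3e was at 0 counts in all 6, and leukocyte markers summed to 7.74 to 15.6 in RNF138 fl/fl and 81.6 to 122 in labelled RNF138-/- organoids. Xist had 4924 to 6881 counts in the RNF138 fl/fl organoid libraries, where the Y-linked Ddx3y, Uty and Kdm5d were at 0 counts, against 0 to 3 counts of Xist and at least 221 of each Y-linked gene in those labelled RNF138-/-. Sex and genotype therefore cannot be told apart in the organoids, while all 12 tissue libraries had at most 11 counts of Xist.

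Library composition by gene length also moved with the groups. The median deviation of the 25% longest genes minus that of the 25% shortest was 0.33 to 0.54 (log2) in CAC labelled RNF138-/- against -0.04 to 0.21 in CAC RNF138 fl/fl, and 0.15 to 0.26 against -0.44 to -0.11 in the organoids. When each library was corrected for gene length, an alternative chosen after this was seen, 22 of the 22 member calls made over all comparisons were kept.

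**Figure D1:**
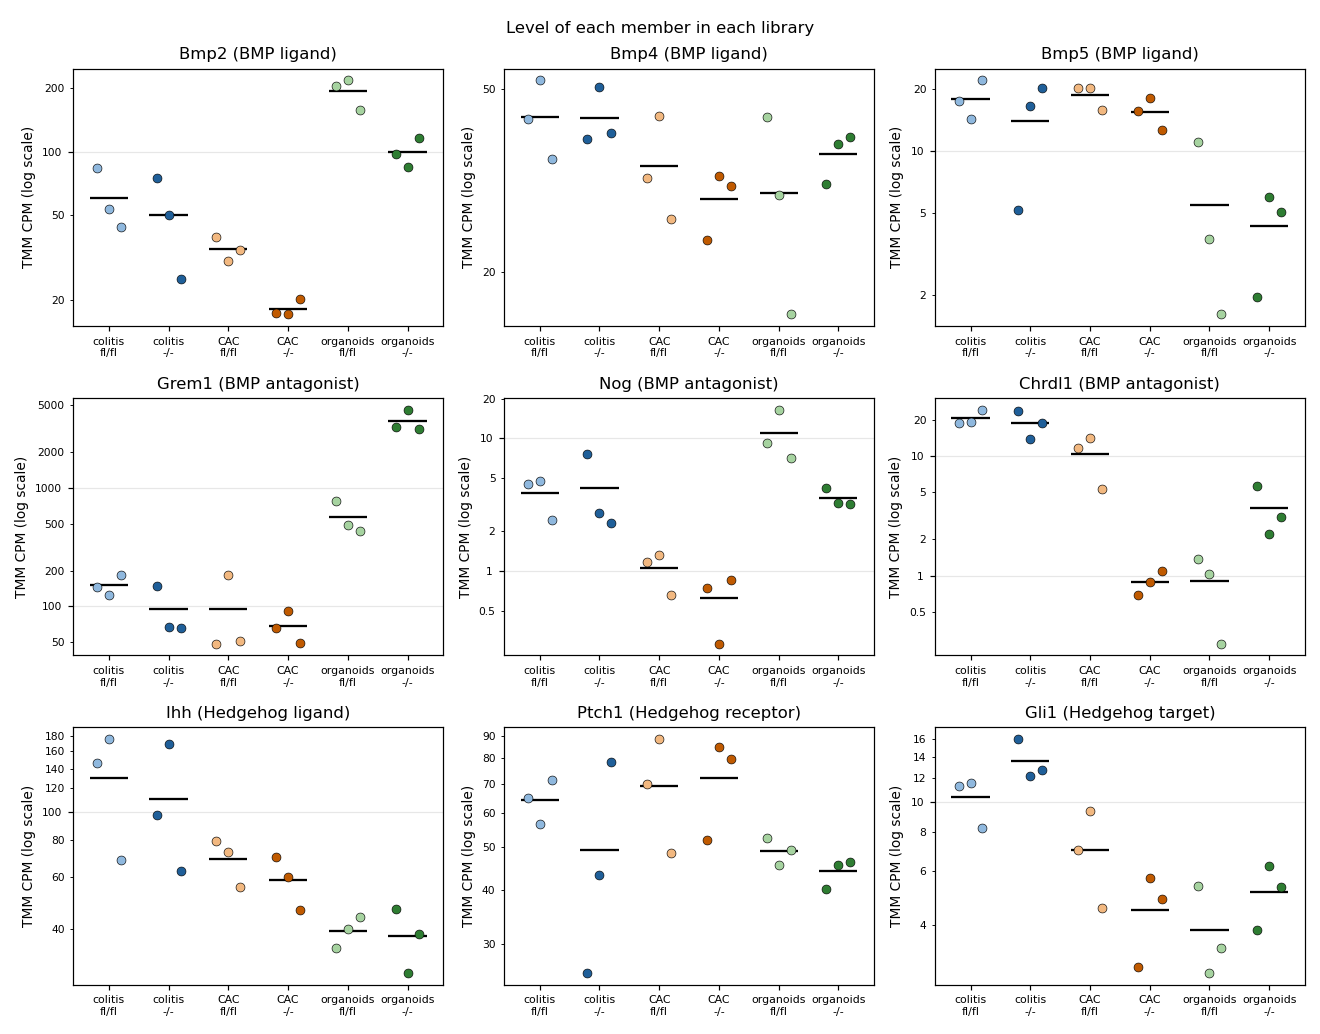
TMM-normalised CPM (log axis, scaled per panel) of the 9 members in each of 18 libraries; points are libraries and bars are means of 3. Grem1 in organoids labelled RNF138-/- lies between 3124 and 4582 CPM, above every other library, and Chrdl1 in CAC labelled RNF138-/- lies between 0.691 and 1.09, below all other tissue libraries.

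Per kilobase of exon, the tissues were led by Ihh and Grem1. In colitis RNF138 fl/fl tissue Ihh had 42.8 ± 18.3 CPM per kb (SD, n = 3) and Grem1 36.4 ± 7.03, and their libraries overlapped. Bmp4 (19.4 ± 3.81) and Bmp2 (17.0 ± 5.89) came next and also overlapped, and the other 5 members were at 4.53 or below. In CAC tissue labelled RNF138-/- the order ended with Gli1 (0.897 ± 0.282), Nog (0.371 ± 0.180) and Chrdl1 (0.132 ± 0.0293), each separate from the next. In organoids Grem1 stood first, at 136 ± 43.6 CPM per kb in RNF138 fl/fl and 882 ± 193 in labelled RNF138-/-, and Bmp2 second, at 54.2 ± 8.75 and 27.9 ± 4.40, and the libraries of Grem1 and Bmp2 did not overlap in either genotype.

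In colitis no member was called between the genotypes, in edgeR or in DESeq2, against 0.0902% of all genes called. The log2 fold changes of the 9 members lay between -0.68 (Grem1, SE 0.34, edgeR test, adjusted p = 0.544) and 0.39 (Gli1, SE 0.23, adjusted p = 0.63). Their median was -0.25, beside 0.02 over all genes tested, and 0 of the 9 had an unadjusted p under 0.05. Gli1 was the only member whose groups did not overlap, with 11.3, 11.6 and 8.24 CPM in RNF138 fl/fl and 16.0, 12.1 and 12.7 in labelled RNF138-/- libraries, while 17.2% of all genes had groups that did not overlap. The libraries of the labelled RNF138-/- tissue differed widely in Bmp5 and Ptch1. Bmp5 had 5.21, 16.6 and 20.2 CPM there against 17.5, 14.3 and 22.0 in RNF138 fl/fl. Ptch1 had 25.8, 43.2 and 78.6 CPM against 64.9, 56.6 and 71.2. Library 1 of the labelled RNF138-/- tissue was lowest in both genes, and it also had the lowest length measure of all tissue libraries, -0.63.

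In CAC 1 of the 9 members was called between the genotypes, against 5.37% of all genes. This was Chrdl1, which encodes chordin-like 1, a secreted BMP antagonist of mesenchymal cells, and it was lower in labelled RNF138-/- tissue. Its levels were 11.5, 14.0 and 5.30 CPM in RNF138 fl/fl libraries. They were 0.691, 0.891 and 1.09 CPM in libraries labelled RNF138-/-, from 13, 22 and 24 counts. Every RNF138 fl/fl library was above every labelled RNF138-/- library, at a log2 fold change of -3.57 (SE 0.43, edgeR test, adjusted p = 0.0221). In bulk tissue fewer cells of a type and less RNA per cell cannot be told apart. Set against the summed smooth muscle markers of the same library, Chrdl1 was at 6.08 to 44.6 per 10000 CPM in RNF138 fl/fl and 43.2 to 57.5 in labelled RNF138-/- libraries, so it was not lower relative to these markers. Set against the summed fibroblast markers it was at 4.43 to 7.86 and 0.552 to 0.707 per 1000 CPM, and the genotypes did not overlap. Without CAC RNF138 fl/fl library 3 the log2 fold change was -3.86 (SE 0.28, edgeR test, adjusted p = 0.00756). Without labelled RNF138-/- library 1, 2 or 3 the log2 fold change was -3.43, -3.55 and -3.71 with an edgeR adjusted p of 0.0893, 0.125 and 0.0545. Calls over all genes went from 954 to 0, 0 and 109 in these fits, so the loss of the call was not particular to Chrdl1.

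The log2 fold change of Chrdl1 in CAC differed from that in colitis by -3.37 (SE 0.63, edgeR interaction contrast, adjusted p = 0.00379), where 11.9% of all genes were called. In colitis Chrdl1 had 18.7, 19.0 and 24.2 CPM in RNF138 fl/fl and 23.5, 13.7 and 18.5 in labelled RNF138-/- libraries, which overlapped.

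Bmp2, a BMP ligand made by differentiated epithelium and stroma, was lower in CAC labelled RNF138-/- by less than the 2-fold rule asks. It had 39.4, 30.4 and 34.4 CPM in RNF138 fl/fl and 17.3, 17.1 and 20.1 in labelled RNF138-/- libraries. The genotypes did not overlap, at a log2 fold change of -0.99 (SE 0.15, edgeR test, adjusted p = 0.03). Without RNF138 fl/fl library 1, or without labelled RNF138-/- library 1, 2 or 3, the edgeR adjusted p was above 0.05, and it reached 0.144 without labelled RNF138-/- library 2. Without RNF138 fl/fl library 2 Bmp2 was called lower, at -1.07 (edgeR test, adjusted p = 0.0486). Bmp2 and Chrdl1 were the 2 of 9 members whose CAC groups did not overlap, while 45.2% of all genes did not. Surface colonocyte markers were lower without overlap in 7 of 7 genes in the same comparison. Their part in the Bmp2 difference was not tested.

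The other CAC members were not called. Grem1, the gremlin 1 antagonist, had 48.4, 185 and 51.2 CPM in RNF138 fl/fl and 66.2, 90.5 and 48.6 in labelled RNF138-/- libraries. The single high library was RNF138 fl/fl library 2. Leaving libraries out moved the log2 fold change of Grem1 between -0.84 and 0.41. Ptch1, the Hedgehog receptor, differed by 0.01 (SE 0.27, edgeR test, adjusted p = 0.979), and Ihh, its ligand, by -0.29 (SE 0.20, adjusted p = 0.348). The median over the 9 members was -0.52, beside 0.01 over all genes tested.

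In the organoids 3 of the 9 members were called between the genotypes, all of them BMP antagonists, against 15% of all genes. Grem1 and Chrdl1 were higher in organoids labelled RNF138-/- and Nog was lower. Grem1 had 769, 483 and 435 CPM in RNF138 fl/fl and 3272, 4582 and 3124 in labelled RNF138-/- organoids. The lowest labelled RNF138-/- library was above the highest RNF138 fl/fl library, at a log2 fold change of 2.67 (SE 0.27, edgeR test, adjusted p = 0.00107). By counts Grem1 ranked 22, 17 and 21 among all genes in the labelled RNF138-/- organoids, 180, 313 and 327 in the RNF138 fl/fl organoids, and between 761 and 4417 in the tissues. Relative to the summed fibroblast markers of the same library it was at 3.29 to 5.26% in RNF138 fl/fl and 6.69 to 9.14% in labelled RNF138-/- organoids. Relative to Pdgfra, a receptor of intestinal fibroblasts, the ratios were 3.32 to 5.83 and 6.33 to 7.14. The genotypes did not overlap on either scale, and the remaining difference was smaller than in CPM. In colitis RNF138 fl/fl tissue Grem1 was at 8.54 to 12.9% of the fibroblast sum.

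**Figure D2:**
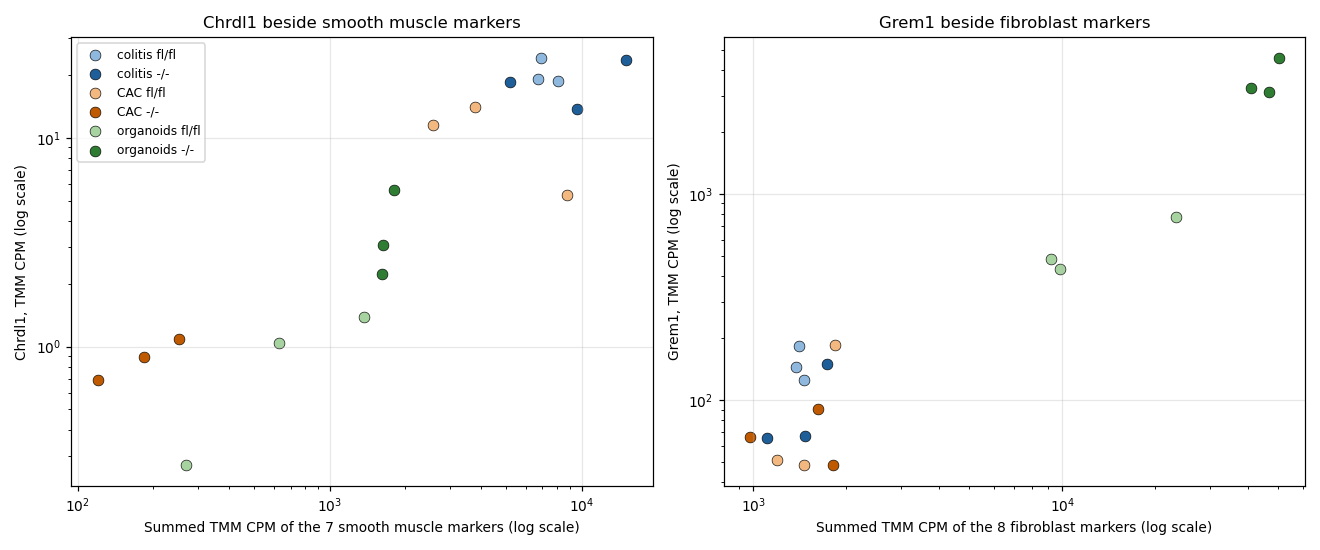
Left, Chrdl1 against the summed CPM of 7 smooth muscle markers; right, Grem1 against the summed CPM of 8 fibroblast markers, per library on log axes. The 3 CAC libraries labelled RNF138-/- are low in both Chrdl1 and smooth muscle markers (120.2 to 252 CPM), and the 3 organoid libraries labelled RNF138-/- are the highest in both Grem1 and fibroblast markers (40770 to 50145 CPM).

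Nog encodes noggin, an antagonist that is also a common supplement of organoid media. It had 9.23, 16.5 and 7.08 CPM in RNF138 fl/fl and 4.21, 3.28 and 3.21 in labelled RNF138-/- organoids. All RNF138 fl/fl libraries were above all labelled RNF138-/- libraries, at a log2 fold change of -1.65 (SE 0.34, edgeR test, adjusted p = 0.00878). Nog and Grem1 thus differed in opposite directions in the same cultures. Chrdl1 had 1.38, 1.04 and 0.270 CPM in RNF138 fl/fl organoids, from 24, 13 and 4 counts. It had 5.62, 2.22 and 3.06 CPM in labelled RNF138-/- organoids, at a log2 fold change of 1.95 (SE 0.56, edgeR test, adjusted p = 0.0284). These groups did not overlap, but the call was kept in 2 of the 6 fits that left out 1 library, with an adjusted p of up to 0.104. Chrdl1 is on the X chromosome, and the groups differ in sex as described above.

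Against the smooth muscle sum, Chrdl1 in the organoids was at 10.0 to 16.5 per 10000 CPM in RNF138 fl/fl and 13.8 to 31.1 in labelled RNF138-/-, which overlapped. The genotype difference in organoids exceeded that in CAC by 3.17 for Grem1 (SE 0.66, edgeR interaction contrast, adjusted p = 0.00339) and by 5.51 for Chrdl1 (SE 0.68, adjusted p = 0.00012), where 18.9% of all genes were called. Both comparisons are of CAC origin, but one is of whole tissue and the other of cultures, and the sexes differ in the second only.

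Bmp2 was also lower in labelled RNF138-/- organoids. It had 204, 217 and 158 CPM in RNF138 fl/fl and 97.0, 84.6 and 116 in labelled RNF138-/- organoids. The genotypes did not overlap, at a log2 fold change of -0.999 (SE 0.16, edgeR test, adjusted p = 0.00421) that fell just short of 2-fold. Over the 6 fits that left out 1 library it lay between -1.13 and -0.88. Bmp2 was called lower in the fits without organoid library 3 of either genotype. With Grem1, Nog and Chrdl1 it made 4 of 9 members whose organoid groups did not overlap, against 53.2% of all genes.

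Bmp4, a ligand of the crypt mesenchyme, had 43.5, 29.4 and 16.2 CPM in RNF138 fl/fl and 31.2, 38.0 and 39.3 in labelled RNF138-/- organoids. Bmp5, another stromal ligand, had 11.0, 3.75 and 1.62 against 1.97, 5.98 and 5.08. For both genes the spread lay mainly among the RNF138 fl/fl libraries, where library 1 was highest, as it was in the fibroblast sum (23410 CPM against 9180 and 9836). Neither was called, with log2 fold changes of 0.24 (SE 0.30, edgeR test, adjusted p = 0.557) and -0.37 (SE 0.65, adjusted p = 0.681).

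None of the Hedgehog members was called between the organoid genotypes. Ihh had 34.6, 40.1 and 44.1 CPM in RNF138 fl/fl and 47.0, 28.5 and 38.6 in labelled RNF138-/- libraries, a log2 fold change of -0.10 (SE 0.19, edgeR test, adjusted p = 0.713). Ptch1 had 52.6, 45.5 and 49.3 against 40.2, 45.7 and 46.4, a log2 fold change of -0.19 (SE 0.11, edgeR test, adjusted p = 0.2). With the gene length correction the value of Ptch1, the longest member, was -0.46 (SE 0.098, edgeR test, adjusted p = 0.0113), still under 2-fold. Gli1, the transcriptional effector and target, had 5.36, 2.79 and 3.37 against 3.86, 6.19 and 5.30. All 3 sets of libraries overlapped.

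**Figure D3:**
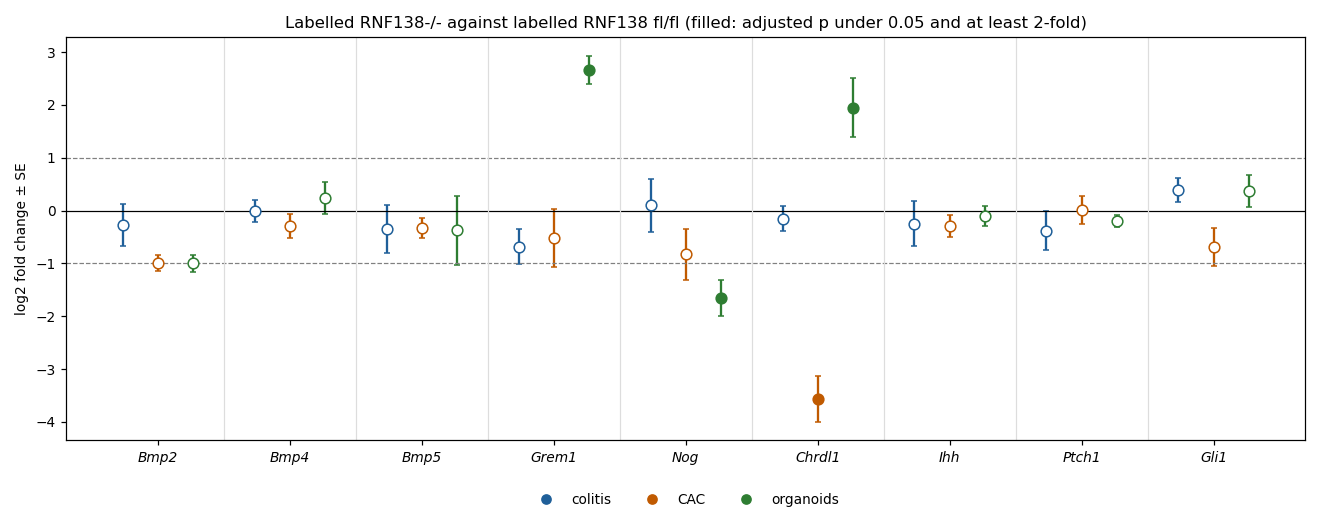
log2 fold change (± SE) of each member between the genotypes as labelled, in colitis, CAC and organoids; filled points passed both thresholds, dashed lines mark 2-fold. Filled points are Chrdl1 in CAC (-3.57) and Grem1 (2.67), Nog (-1.65) and Chrdl1 (1.95) in the organoids.

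Summed per kilobase, the antagonists Grem1, Nog and Chrdl1 stood at 1.68 to 2.41 times the ligands Bmp2, Bmp4 and Bmp5 in RNF138 fl/fl organoids and at 14.7 to 26.2 times in labelled RNF138-/- organoids. In the tissues the same ratio lay between 0.463 and 1.46. Grem1 makes up most of the antagonist sum, so these ratios repeat its values. Bmp2 per Bmp4 in CPM was 4.68 to 9.73 in RNF138 fl/fl organoids and 2.23 to 3.11 in labelled RNF138-/- organoids, against at most 1.95 in tissue.

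CAC tissue was compared with colitis tissue within each genotype. In RNF138 fl/fl libraries 1 of 9 was called, Nog, against 13.6% of all genes, and in those labelled RNF138-/- 4 of 9 were called, Bmp2, Nog, Chrdl1 and Gli1, all lower, against 37.1% of all genes. Among the labelled RNF138-/- libraries, markers were also called lower in 7 of 7 smooth muscle, 7 of 7 surface colonocyte and 6 of 6 enteric neuron and glia genes. Also called lower were 3 of 3 fat, 2 of 8 fibroblast, 1 of 7 epithelial and 1 of 5 leukocyte markers, and 4 of 5 crypt base markers were called higher. The part of all these markers in the 4 calls was not tested. Among the RNF138 fl/fl libraries, 3 of 4 squamous, 2 of 5 crypt base and 1 of 3 fat markers were called higher and 1 of 6 enteric neuron and glia markers lower, and their part in the Nog call was not tested. Squamous markers were called higher in 3 of 4 and lower in 1 of 4 among the labelled RNF138-/- libraries, and skeletal muscle markers lower in 3 of 3. Nog fell from 4.52, 4.77 and 2.42 CPM in colitis to 1.17, 1.32 and 0.663 in CAC among RNF138 fl/fl libraries. The groups did not overlap, at -1.86 on the log2 scale (SE 0.51, edgeR test, adjusted p = 0.0181), and without colitis RNF138 fl/fl library 1 or 2 the adjusted p was 0.0572 and 0.0554. In labelled RNF138-/- libraries Nog went from 7.60, 2.76 and 2.32 CPM to 0.744, 0.283 and 0.860, at -2.75 (SE 0.53, edgeR test, adjusted p = 0.000456). The CAC values of Nog rest on 7 to 28 counts per library.

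Gli1 had 16.0, 12.1 and 12.7 CPM in colitis labelled RNF138-/- and 2.92, 5.67 and 4.84 in CAC labelled RNF138-/-. These did not overlap, at a log2 fold change of -1.60 (SE 0.33, edgeR test, adjusted p = 0.000728), and in RNF138 fl/fl libraries the value was -0.56 (SE 0.32, adjusted p = 0.229). The difference of these Gli1 values was itself not called, at -1.04 (SE 0.45, edgeR interaction contrast, adjusted p = 0.135). Bmp2 fell in labelled RNF138-/- libraries by 1.46 on the log2 scale (SE 0.31, edgeR test, adjusted p = 0.000983), and the value in RNF138 fl/fl libraries was -0.80 (SE 0.30, adjusted p = 0.0743). Chrdl1 fell in labelled RNF138-/- libraries by 4.37 (SE 0.49, edgeR test, adjusted p = 7.19e-06), beside the smooth muscle markers, which were called lower in 7 of 7 there.

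Ihh was lower on average in CAC, but not past the 2-fold rule with all libraries in the fit. Colitis levels of 147, 177 and 68.6 CPM in RNF138 fl/fl libraries stood beside 79.9, 72.8 and 55.7 in CAC, which overlapped through colitis library 3. The log2 fold change was -0.91 (SE 0.34, edgeR test, adjusted p = 0.0728), and -0.90 (SE 0.34, adjusted p = 0.0352) in labelled RNF138-/- libraries. Over fits that left out 1 library these values lay between -1.23 and -0.67 and between -1.24 and -0.53. Ihh was called lower in RNF138 fl/fl without colitis library 3, and in labelled RNF138-/- without colitis library 3 or CAC library 1. Ptch1 had values of 0.11 (SE 0.30, edgeR test, adjusted p = 0.835) and 0.55 (SE 0.30, adjusted p = 0.134), Bmp4 of -0.36 and -0.58, and Grem1 of -0.67 and -0.46, none of them called. Groups did not overlap for 3 of 9 members in RNF138 fl/fl and 5 of 9 in labelled RNF138-/- libraries, against 34.1% and 59.1% of all genes.

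Organoids against CAC tissue is a contrast of cultures with whole tissue. Of the 9 members, 5 were called in RNF138 fl/fl libraries, against 44.3% of all genes, and 5 in labelled RNF138-/- libraries, against 44.4%. Bmp2, Grem1 and Nog were higher and Bmp5 was lower in organoids in both genotypes. Bmp2 was higher by 2.47 (SE 0.32, edgeR test, adjusted p = 9.07e-06) in RNF138 fl/fl and by 2.45 (SE 0.32, adjusted p = 8.88e-06) in labelled RNF138-/- libraries, and the lowest organoid library (84.6 CPM) was above the highest tissue library (84.0). Nog was higher by 3.34 (SE 0.52, edgeR test, adjusted p = 5.94e-05) and 2.50 (SE 0.53, adjusted p = 0.000744). Endothelial and leukocyte markers were called lower in organoids in 5 of 5 each in both genotypes. Markers were also called lower in 7 of 7 surface colonocyte, 4 of 6 enteric neuron and glia and 3 of 3 fat genes in RNF138 fl/fl libraries, and in 3 of 7 surface colonocyte, 1 of 6 enteric neuron and glia and 2 of 5 crypt base genes in labelled RNF138-/- libraries. Of the RNF138 fl/fl crypt base markers 2 of 5 were called higher and 1 of 5 lower, and skeletal muscle markers were called higher in 2 of 3 in both genotypes and lower in 1 of 3 in RNF138 fl/fl. The part of these markers in the Bmp2, Nog and Bmp5 calls was not tested.

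Grem1 was higher by 2.57 (SE 0.48, edgeR test, adjusted p = 0.000285) and 5.74 (SE 0.56, adjusted p = 4.82e-07), in cultures whose fibroblast markers were also higher, with 6 and 7 of 8 called higher and 1 called lower in RNF138 fl/fl. Leaving out 1 library moved the Grem1 values between 2.23 and 3.48 and between 5.53 and 5.98. Bmp5 was lower, at -1.76 (SE 0.56, edgeR test, adjusted p = 0.013) and -1.82 (SE 0.57, adjusted p = 0.0113). Each Bmp5 call was lost in 1 of 6 fits that left out 1 library, without RNF138 fl/fl organoid library 2 (edgeR adjusted p = 0.0547) and without labelled RNF138-/- organoid library 1 (0.0538). Chrdl1 was called in opposite directions, at -3.50 (SE 0.49, edgeR test, adjusted p = 2.2e-05) in RNF138 fl/fl and 2.01 (SE 0.47, adjusted p = 0.00182) in labelled RNF138-/- libraries. Smooth muscle markers did likewise, with 6 of 7 called lower in the first and 5 of 7 higher in the second. Groups did not overlap for 6 of 9 members in each genotype, against 65.3% and 74% of all genes. The median of all genes lay at -0.14 and -0.22 in these contrasts, and relative to it each of the calls named keeps its direction.

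**Figure D4:**
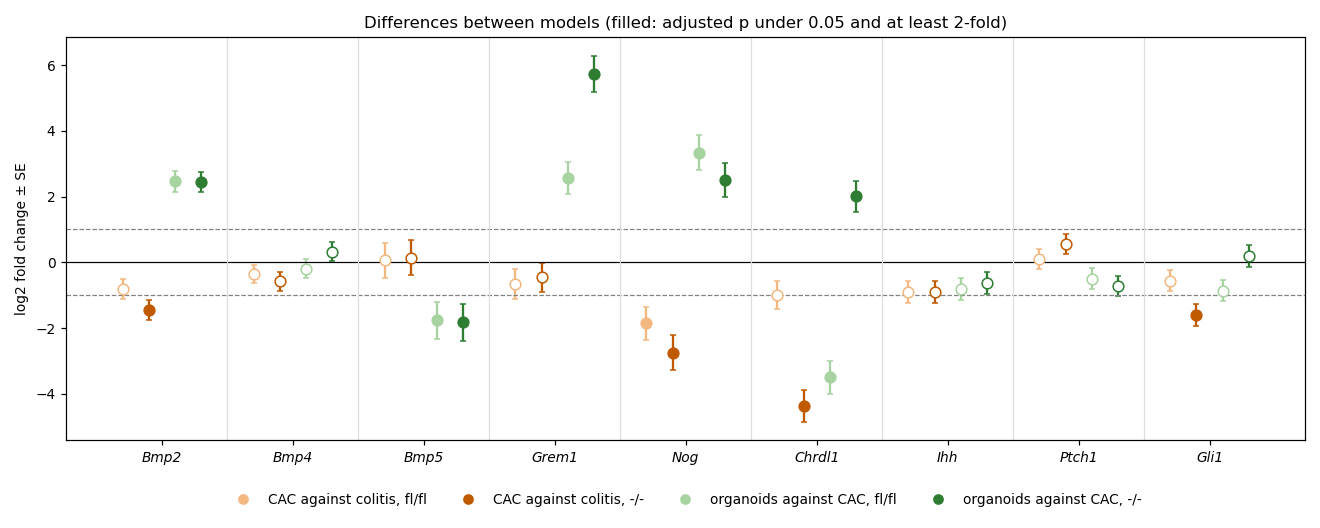
log2 fold change (± SE) of each member for CAC against colitis and organoids against CAC, in both genotypes as labelled; filled points passed both thresholds. Chrdl1 lies at -3.50 and 2.01 for organoids against CAC, while Bmp2 lies at 2.47 and 2.45.

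The wider pathway lists were described in the same comparisons; they contain the members. In colitis 0 of 70 tested genes of the 7 lists were called between the genotypes in edgeR, and 7 had an unadjusted p under 0.05. In CAC 4 of 13 tested BMP antagonists were called lower, against 4.83% of all genes called lower, with a list median of -0.52. Over all genes 0 calls remained without labelled RNF138-/- library 1 or 2, so these pathway calls were lost there too. The 3 largest were Sostdc1 (-4.24, SE 0.42, edgeR test, adjusted p = 0.0171), Chrdl1 and Chrdl2 (-3.07, SE 0.67, adjusted p = 0.0487), and Sostdc1 had 1 count in each labelled RNF138-/- library. The ligand Bmp8a (-2.02, SE 0.44, edgeR test, adjusted p = 0.0481), the BMP response gene Id4 (-2.67, SE 0.37, adjusted p = 0.0262) and Foxf1 (-1.13, SE 0.21, adjusted p = 0.0372), a forkhead factor that Hedgehog induces in gut mesenchyme, were the calls in the other lists. Id4 had 17.2, 26.3 and 11.6 CPM in RNF138 fl/fl and 2.61, 2.43 and 3.94 in labelled RNF138-/- CAC tissue, with no overlap. Marker medians in this comparison were -5.03 for smooth muscle, -5.21 for surface colonocytes, -3.16 for enteric neurons and glia and 1.85 for crypt base. The part of these markers in the pathway calls was not tested. Of the 14 BMP receptor and SMAD genes and the 12 Hedgehog reception genes, 0 were called in CAC in edgeR, and 3 and 4 had an unadjusted p under 0.05.

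In the organoids 7 of 12 tested BMP antagonists were called higher and 1 lower, with a list median of 1.02 beside -0.04 over all genes. Of all genes, 7.94% were called higher and 7.04% lower. Fibroblast markers had a median of 1.67 and smooth muscle markers one of 1.24 in the same comparison. The part of these markers and of sex in the antagonist calls was not tested. Chrdl2 had 3.92, 4.47 and 1.75 CPM in RNF138 fl/fl and 105.6, 118 and 135 in labelled RNF138-/- organoids. These were far apart, at a log2 fold change of 5.11 (SE 0.29, edgeR test, adjusted p = 0.000143). Chrd (1.32), Nbl1 (1.04) and Fstl1 (1.00), named after their values were seen, were also among those called higher, beside Grem1 and Chrdl1.

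BMP response genes, direct transcriptional targets of the SMAD pathway and its feedback inhibitors, stood on the other side. Of 10 tested, 6 were called lower in labelled RNF138-/- organoids and 0 higher, with a list median of -1.11. Crypt base markers were called lower in 2 of 4 tested genes there (median -1.004, sums of 380 to 509 CPM against 855 to 1305) and epithelial markers in 1 of 7 (median -0.57). Bambi, a pseudoreceptor that dampens BMP and TGF-β signals, had 130.3, 182 and 118 CPM in RNF138 fl/fl and 64.4, 41.2 and 52.9 in labelled RNF138-/- organoids. Its groups did not overlap, at -1.48 (SE 0.21, edgeR test, adjusted p = 0.00287). Id2 had 118, 247 and 183 CPM against 68.4, 73.7 and 64.6, at -1.45 (SE 0.25, edgeR test, adjusted p = 0.00465). Id1, a helix-loop-helix inhibitor and classic BMP target, had 77.6, 171 and 164 CPM against 60.6, 46.6 and 51.9, at -1.41 (SE 0.28, edgeR test, adjusted p = 0.00794). Both genes were lower in every labelled RNF138-/- library, and Id3 (-1.13), Smad6 (-1.10) and Hey1 (-1.18), named to complete the count, made up the 6. In CAC tissue Id1 had 193, 157 and 139 CPM in RNF138 fl/fl and 181, 142 and 182 in labelled RNF138-/- libraries, which overlapped. The Id1 difference between organoids and CAC was itself called, at -1.42 (SE 0.39, edgeR interaction contrast, adjusted p = 0.0157). Whether the antagonists bear on these genes was not tested, and neither was the part of cell composition or sex.

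Among BMP receptors and SMADs, 3 of 14 were called higher in labelled RNF138-/- organoids, against 7.94% of all genes. They were the type I receptors Bmpr1b (2.54, SE 0.23, edgeR test, adjusted p = 0.000792) and Acvrl1 (2.09, SE 0.33, adjusted p = 0.00375) and the co-receptor Eng (1.25, SE 0.28, adjusted p = 0.0117). The part of cell composition or sex in these calls was not tested. Among other BMP ligands, Bmp7 was lower (-1.34, SE 0.18, edgeR test, adjusted p = 0.00214) and Gdf6 higher (1.29, SE 0.28, adjusted p = 0.0108).

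Other Hedgehog components were called although Ihh, Ptch1 and Gli1 were not called. Of 11 tested reception and transduction genes, 4 were called higher in labelled RNF138-/- organoids, against 7.94% of all genes, with a list median of 0.81. They were Gli2 (2.14, SE 0.29, edgeR test, adjusted p = 0.00234), Boc (1.41, SE 0.31, adjusted p = 0.0108), Gli3 (1.40, SE 0.30, adjusted p = 0.0103) and the transducer Smo (1.01). Fibroblast markers were called higher in 6 of 8 genes there, with a median of 1.67. Their part and that of sex in these calls were not tested. Gli2, the main activator upstream of Gli1, had 5.77, 2.55 and 3.85 CPM in RNF138 fl/fl and 15.0, 22.1 and 18.4 in labelled RNF138-/- organoids, without overlap. Shh, a ligand that adult colon scarcely expresses, had 6.29, 8.54 and 8.84 CPM against 0.421, 0.688 and 0.523. Its groups did not overlap either, at -3.85 (SE 0.31, edgeR test, adjusted p = 0.000591), from 6 to 13 counts in the labelled RNF138-/- libraries. The ligand-release list also had 1 gene called higher, Hhat (1.45, SE 0.20, edgeR test, adjusted p = 0.00239), which acylates Hedgehog ligands. Of the Hedgehog response genes, Foxf1 was higher (2.10, SE 0.37, edgeR test, adjusted p = 0.00542) and Foxl1, a marker of subepithelial telocytes, was lower (-1.55, SE 0.28, adjusted p = 0.00563).

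**Figure D5:**
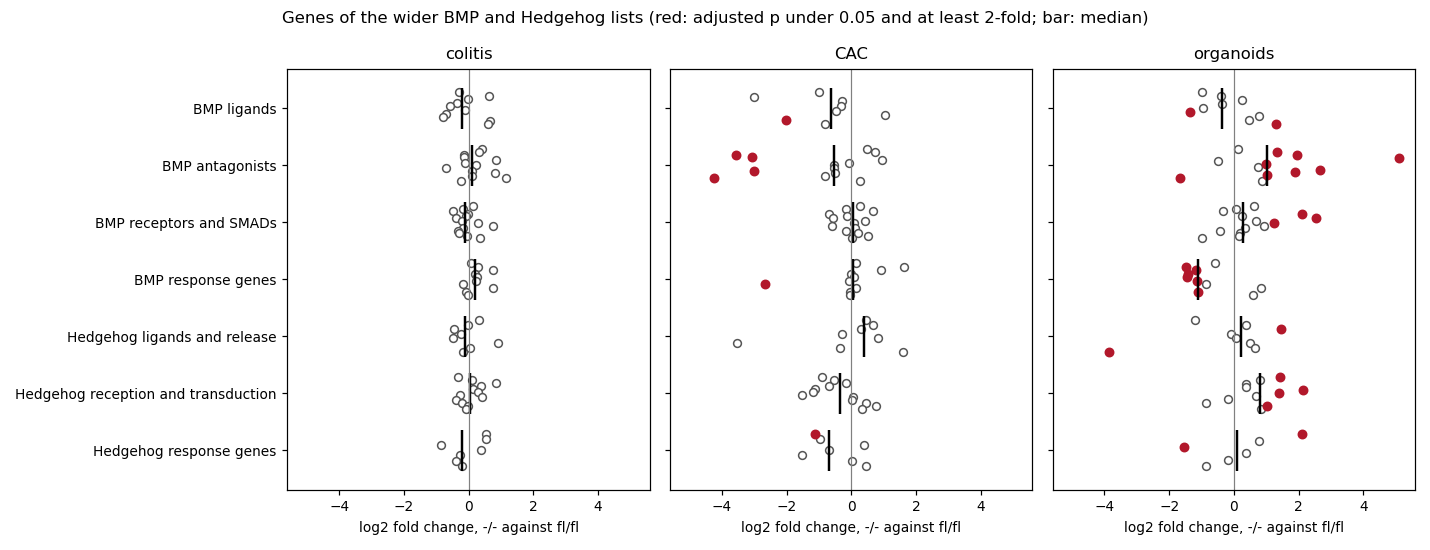
log2 fold change between the genotypes as labelled for each tested gene of 7 BMP and Hedgehog lists in colitis, CAC and organoids; red points passed both thresholds and black bars are list medians. In the organoids the antagonists have a median of 1.02 and the BMP response genes one of -1.11, and no point is red in colitis.

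Between the tissue models, 7 of 13 BMP antagonists were called lower and 1 higher in CAC against colitis among labelled RNF138-/- libraries (19.6% of all genes lower), and 3 lower and 1 higher among RNF138 fl/fl libraries (3.81%). BMP ligands were called lower in 6 of 10 and higher in 1 of 10 in the first (list median -1.28), and lower in 4 of 10 in the second (-0.80). Hedgehog response genes were called lower in 4 of 7 and higher in 2 of 7 in the first. Hedgehog reception genes were called lower in 6 of 12 and higher in 1 of 12 in the first, and lower in 2 of 12 in the second. The largest among labelled RNF138-/- libraries were Gas1 (-2.02, SE 0.42, edgeR test, adjusted p = 0.000845), Gli3 (-1.98, SE 0.29, adjusted p = 5.47e-05) and Boc (-1.83, SE 0.36, adjusted p = 0.000554). Smo (-1.50) and Boc (-1.31) were those among RNF138 fl/fl libraries. In organoids against CAC, 9 of 13 antagonists were higher and 2 lower in RNF138 fl/fl libraries, and 12 of 13 were higher in labelled RNF138-/- libraries, where 17.5% and 17.9% of all genes were called higher. BMP response genes were higher in 7 of 10 in RNF138 fl/fl libraries, and 3 higher and 2 lower in labelled RNF138-/- libraries. Hhip, a Hedgehog-binding inhibitor and target, was at 0 counts in all 3 RNF138 fl/fl organoid libraries and at 1 to 7 in the labelled RNF138-/- ones, against 94 to 435 counts in the RNF138 fl/fl and 104 to 167 in the labelled RNF138-/- CAC tissue.

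Across the 12 tissue libraries, each member was set beside 12363 genes by Pearson's correlation of log2 CPM, as a description without a test, since libraries of a group share their treatment. Nearest to Chrdl1 were Gas7 (r = 0.987) and Itga8 (0.983). Nearest to Gli1 were Adamts10 (0.967), Fgd5 and Gpr162, to Bmp4 Flt4 (0.938), Hspa12b and Fbln2, and to Bmp2 D10Jhu81e (0.973), Tradd and Adam15. Nearest to Nog were Dpm3 (0.955), Coa4 and Pde6d, and to Ihh Dnttip1 (0.953), Apeh and Alg1. Bmp5 had Zfp955b (0.907), Aak1 and Sptbn1 nearest, Ptch1 had Lrrc31 (0.932), Slc35g1 and Zfand1, and Grem1 had Zfp280b (0.908), Rbms2 and Vgll3. Among the members, Bmp4 and Gli1 had r = 0.874 over the 12 libraries and 0.770 after the group means were removed. Ihh and Ptch1, ligand and receptor, had r = -0.41 and -0.34, and Bmp5 and Ptch1 0.791 and 0.784. The last pair includes the longest member, Ptch1, and both were lowest in the library with the lowest length measure, and the part of transcript length in their likeness was not tested.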

How the data were processed

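RNA sequencing libraries (TruSeq) of 18 samples were read from the deposited table of raw read counts per gene (36757 genes, mm10). Per the labels, the submitters' processing notes name STAR 2.6.1d, HTSeq 0.11.2 and DESeq2, while the methods of the study name Cufflinks with a Gencode annotation. Whether counting used strand is not given in the sources used here. The deposited table of the authors' own log2 fold changes and p-values was not used. Lengths and coordinates came from GENCODE M21, where 36700 gene IDs (99.8%) matched.

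Genotypes were compared within each setting in edgeR 4.0.16 (R 4.3.3; TMM scaling, filterByExpr, quasi-likelihood test, Benjamini-Hochberg adjustment over all tested genes). Contrasts between settings and interactions came from 1 fit of all 18 libraries. Comparisons between settings share groups with the genotype comparisons, so values are given side by side. Library totals had a median of 17332367 counts, and pairs of replicates differed beyond sampling noise in every group. With 3 libraries against 3, an exact permutation test cannot go below 0.1. The procedure was tested on simulated data.

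Alternatives were RLE scaling, library totals, other filters, DESeq2 1.42.0, a replicate block, other fits, leaving out each library and a correction for gene length in 20 bins, the last chosen after seeing the data. The members, the pathway and marker lists and the rule for named genes were chosen with earlier results of these data known. The rule named the 9 members, at most 3 called genes per pathway list and comparison with the largest change, and the 3 genes of most similar pattern per member. Genes named to complete a count, Hhip, and the values of Id1 in CAC were added after the values were seen. The Hedgehog lists of reception and response genes share members, Gli1, Ptch1 and Hhip among them. Some genes that the rule would name are not reported here. Skeletal muscle and squamous markers were also listed. In CAC labelled RNF138-/- the 2 tested skeletal muscle markers were lower (median -4.09), and 1 of 2 was called. The 3 tested squamous markers were higher (median 1.56), and 0 of 3 were called. Squamous sums were 133, 21.8 and 13.0 CPM there against 36.1, 30.5 and 3.88 in RNF138 fl/fl.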

Additional observations from a re-analysis of the deposited data

Results flagged for a closer look

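The genotype effect on Chrdl1 differed between CAC and colitis by -3.37 on the log2 scale (SE 0.63, edgeR interaction contrast, adjusted p = 0.00379), and it drew attention because the difference between the settings was itself tested. For the same reason Chrdl1 stood out between organoids and CAC, at 5.51 (SE 0.68, edgeR, adjusted p = 0.00012). Grem1 differed between organoids and CAC by 3.17 (SE 0.66, edgeR, adjusted p = 0.00339). These contrasts were kept in 12 of 12 fits that left out 1 library each. Over these fits Chrdl1 lay between -3.68 and -3.12 (CAC minus colitis) and between 5.06 and 6.02 (organoids minus CAC), and Grem1 between 2.27 and 3.51. Smooth muscle and surface colonocyte markers were each called in 7 of 7 genes in both contrasts, in the direction of Chrdl1. Enteric neuron and glia markers (6 of 6) and fat markers (3 of 3) were called lower in CAC minus colitis, and fibroblast markers were called higher in 5 of 8 genes in organoids minus CAC. Crypt base markers were called higher in 2 of 5 genes in CAC minus colitis and lower in 4 of 5 in organoids minus CAC. Leukocyte markers were called lower in 1 of 5 in the first and higher in 2 of 5 in the second. The part of all these markers was not tested.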

How the results depend on the processing

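Of the 22 calls made for members over 9 comparisons, 22 were kept with RLE scaling, library totals, no filter on low counts, a filter on mean CPM, DESeq2 and the gene length correction. Nog in CAC between the genotypes did not pass the CPM filter and has no value there. Library totals added 4 calls, Bmp2 between organoid genotypes (-1.20), Gli1 (-1.08, RNF138 fl/fl), Ihh (-1.25) and Ptch1 (-1.34) in organoids against CAC, and the CPM filter added Bmp2 in organoids (-1.01). A replicate block kept 19 and added Bmp2 in CAC against colitis (-1.31, RNF138 fl/fl). Replicate numbers did not pair the libraries (same-number correlations from -0.114 to 0.380), and with the block Nog in CAC against colitis (RNF138 fl/fl) had an adjusted p of 0.0510 and Bmp5 in organoids against CAC one of 0.125 and 0.276. The block counted 0, 1 and 3 members in the genotype comparisons and moved the colitis calls over all genes from 15 to 89. A sex term could not be fitted, since all tissue libraries shared 1 pattern and sex divided the organoids as genotype did.

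Signs turned only for differences that were not called. With RLE scaling these were Ihh, CAC minus colitis genotype effect (-0.044), and Bmp2, organoids minus CAC (0.026), and in DESeq2 they were the same 2 genes (-0.042 and 0.028). With library totals they were Bmp4 (-0.30) and Gli1 (-0.44) in organoids against CAC (labelled RNF138-/-) and Ihh, organoids minus CAC (-0.26). With the block they were Nog in colitis (-0.019), Bmp4 in organoids against CAC (0.18) and Bmp5, organoids minus CAC (0.25). With the length correction they were Nog in colitis (-0.027), Ptch1 in CAC (-0.092), Ihh (-0.0096) and Bmp2 (0.032), and with the fit of the compared models Bmp2 (0.0021).

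Leaving out 1 library turned further signs. Genotype effects in colitis ranged from -0.68 to 0.041 for Bmp2, -0.15 to 0.13 for Bmp4, -0.73 to 0.040 for Bmp5, -0.35 to 0.017 for Chrdl1, -0.71 to 0.027 for Ihh and -0.62 to 0.40 for Nog. In CAC they ranged from -0.84 to 0.41 for Grem1 and -0.17 to 0.24 for Ptch1. In organoids they ranged from -0.053 to 0.64 for Bmp4, -0.81 to 0.69 for Bmp5 and -0.27 to 0.086 for Ihh. CAC against colitis ranged from -0.12 to 0.22 and -0.25 to 0.45 for Bmp5, -0.73 to 0.040 for Grem1 and -0.15 to 0.31 for Ptch1. Organoids against CAC ranged from -0.58 to 0.087 for Bmp4 and -0.045 to 0.39 for Gli1. Interactions ranged from -0.31 to 0.42 for Bmp5, -0.15 to 1.10 for Grem1 and -0.31 to 0.41 for Ihh (CAC minus colitis), and from -0.15 to 0.084 for Bmp2 and -0.46 to 0.99 for Bmp5 (organoids minus CAC). Members called ranged from 0 to 2 in CAC, 2 to 3 in organoids, 0 to 3 and 4 to 6 for CAC against colitis, 4 to 6 and 4 to 5 for organoids against CAC, and 1 to 2 and 2 to 3 for the interactions. Without CAC RNF138 fl/fl library 2, Grem1 was called lower in CAC than colitis (-1.63, edgeR, adjusted p = 0.0111). The causes were not tested. Low counts limit Nog in CAC (7 to 28) and Chrdl1 in RNF138 fl/fl organoids (4 to 24).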
